A study of Mus musculus with 17 samples.

Results

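A set of 10 genes with which killer lymphocytes attack a target cell was followed in distant MC38 tumors of mice, and they were chosen by name from the 21931 genes of the deposited table. They are the granzymes Gzma, Gzmb, Gzmc, Gzmd, Gzme, Gzmf and Gzmk, the pore protein gene Prf1, the granule membrane gene Nkg7 and the death ligand gene Fasl. All 10 are in the table, and all 10 were among the 13005 genes with enough reads to be tested. Gzmk passed that filter only narrowly, with 0 to 38 reads per tumor.

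The question was whether cryoablation of a tumor on one flank went with a change of these genes in the tumor on the other flank. Wild-type C57BL/6J mice aged 6 to 8 weeks carried MC38 tumors under the skin of both flanks, in the control and in the cryoablation group alike. In the cryoablation group, a probe froze the tumor of one side on day 7, in 2 freezing cycles of 20 s each by the sample labels, although the text of the study gives another length. RNA was sequenced from 9 control tumors and from 8 tumors that lay opposite a frozen one, taken on day 5 after freezing. The text of the study gives the sizes of both groups the other way round, and the labels were followed here. The labels name MC38 as mouse colon cancer cells and also as mesenchymal cells, and bulk tumor RNA holds the cancer cells together with the immune cells, vessels and skin around them.

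Cytotoxic T cells and natural killer (NK) cells store perforin and granzymes in granules. When such a cell binds its target, the granules fuse with the membrane, perforin opens the target's membrane, and granzymes enter and cut proteins of the cell death machinery. Granzyme B cuts caspases and Bid, granzyme A acts through other substrates, and granzyme K is typical of less differentiated memory T cells. The mouse carries, beside granzyme B, a tandem row of related granzymes that is expanded in rodents and is switched on in strongly stimulated T and NK cells. Fas ligand kills without granules, by binding the receptor Fas.

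Gene positions follow the deposited table and carry no genome build, since they do not match the build in the submitters' notes. Gzma (ENSMUSG00000023132) was listed on chromosome 13 from 113230359 to 113237515, and Gzmk (ENSMUSG00000042385) on the same chromosome from 113308142 to 113362442, both on the minus strand. On chromosome 14, on the minus strand, Gzme (ENSMUSG00000022156), Gzmd (ENSMUSG00000059256), Gzmf (ENSMUSG00000015441), Gzmc (ENSMUSG00000079186) and Gzmb (ENSMUSG00000015437) followed each other between 56355083 and 56499717. Gzmg and Gzmn, which are not among the 10 genes, lay between Gzmd and Gzmf. Prf1 (ENSMUSG00000037202) was listed on chromosome 10 from 61133612 to 61140459, Nkg7 (ENSMUSG00000004612) on chromosome 7 from 43086497 to 43087673, and Fasl (ENSMUSG00000000817) on chromosome 1 from 161608258 to 161616064.

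The granzymes of the chromosome 14 row are close copies, which bears on how far their read counts can be told apart. Over their coding sequences in GENCODE M21, Gzmd shared 94.8% of aligned bases with Gzme, 88.7% with Gzmg and 84.7% with Gzmf. Gzmc shared 73.4% with Gzmd, and Gzmb shared 76.6% with Gzmc. The first 60 coding bases show this, with capitals at the bases that differ from Gzmd at the same position.
Gzmd: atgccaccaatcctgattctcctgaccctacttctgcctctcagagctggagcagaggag
Gzmg: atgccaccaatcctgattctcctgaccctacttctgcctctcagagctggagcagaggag
Gzmf: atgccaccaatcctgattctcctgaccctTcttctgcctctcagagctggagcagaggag
Gzmc: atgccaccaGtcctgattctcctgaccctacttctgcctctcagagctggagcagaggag
Gzme: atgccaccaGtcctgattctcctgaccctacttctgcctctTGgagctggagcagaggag
Gzmb: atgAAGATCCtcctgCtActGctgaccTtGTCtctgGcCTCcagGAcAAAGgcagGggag
In this stretch, Gzmg did not differ from Gzmd, Gzmf and Gzmc differed at 1 base each, Gzme at 3 bases and Gzmb at 25 bases. Of all windows of 50 bases in the transcript, 21.7% in Gzmd, 20.6% in Gzme, 7.36% in Gzmf and 4.14% in Gzmc also occurred unaltered in another granzyme. None of the windows of Gzmb, Gzma or Gzmk did. At 100 bases the share in Gzmd was 0.231%, and at 150 bases it was 0. Read length and the treatment of reads with several matches are not given in the sources used here, so the split of reads among Gzmc, Gzmd, Gzme, Gzmf and Gzmg is uncertain.

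The promoters of the row are also alike, and they are shown because 4 of the 10 genes varied together across tumors. Of each RefSeq promoter (GRCm38.p6), only the 250 bases before the gene's start were used here. In this stretch, identity between Gzmc, Gzmd, Gzme, Gzmf and Gzmg ranged from 84.4% for Gzmc with Gzmd to 95.6% for Gzmd with Gzme. The same promoters shared 53.9% to 61.6% with that of Gzmb. A run of 20 bases, in capitals in the tandem genes below, occurred in 5 of 32851 promoters, namely those of Gzmc, Gzmd, Gzme, Gzmf and Gzmg. The windows are on the minus strand, at chr14:56132598-56132697 for Gzmd, chr14:56120631-56120730 for Gzme, chr14:56159600-56159699 for Gzmg, chr14:56211433-56211532 for Gzmf and chr14:56234658-56234757 for Gzmc. The window of Gzmb, at chr14:56262335-56262584, has other capitals, which mark the letters TGTGGT and TGANTCA.
Gzmd: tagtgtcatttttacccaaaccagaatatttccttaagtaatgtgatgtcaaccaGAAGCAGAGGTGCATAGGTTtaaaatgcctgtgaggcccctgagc
Gzme: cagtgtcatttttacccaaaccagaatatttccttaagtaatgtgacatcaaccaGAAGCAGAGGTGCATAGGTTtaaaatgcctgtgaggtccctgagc
Gzmg: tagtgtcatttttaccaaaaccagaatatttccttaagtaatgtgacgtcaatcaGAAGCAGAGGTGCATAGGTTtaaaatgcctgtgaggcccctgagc
Gzmf: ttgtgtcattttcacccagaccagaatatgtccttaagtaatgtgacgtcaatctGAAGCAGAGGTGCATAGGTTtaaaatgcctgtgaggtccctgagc
Gzmc: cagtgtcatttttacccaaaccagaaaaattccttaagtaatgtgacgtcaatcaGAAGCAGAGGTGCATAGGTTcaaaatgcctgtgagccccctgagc
Gzmb: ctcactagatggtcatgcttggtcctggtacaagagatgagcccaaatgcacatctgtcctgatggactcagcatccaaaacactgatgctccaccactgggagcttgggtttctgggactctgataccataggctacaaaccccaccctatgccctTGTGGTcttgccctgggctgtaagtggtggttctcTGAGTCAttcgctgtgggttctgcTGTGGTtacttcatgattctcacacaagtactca
Both strands of each promoter were searched for 5 strings of letters, none of which contains another. TGTGGT, the core letters of RUNX sites, was found in 8 of the 10 genes, all but Gzmk and Fasl, and in 14.0% of all promoters. TGANTCA, the letters of AP-1 sites, was found in Gzmb alone among the 10 and in 6.75% of all promoters. TGACGTCA, the letters of CREB and ATF sites, was found in Gzmc and Gzmf, in the neighbour Gzmg, and in 1.55% of all promoters. AGGTGTGA, read by T-box factors, and TTCNNNGAA, read by STAT factors, were found in Nkg7 alone among the 10, and in 1.12% and 7.02% of all promoters. These matches describe letters in a window and are no evidence of binding.

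Total counts ranged from 13524899 to 17898672 per tumor, and the 10 genes together took between 0.0293% and 0.113% of them. For comparisons between tumors, counts were expressed as CPM, that is, scaled to the library total with edgeR's TMM factors. Cryoablation replicates 2, 4 and 5 stood apart from the other 14 tumors on the first principal component, at -25.5, -31.5 and -31.3 against -9.52 to 16.7. In these 3 tumors, genes under 1000 bases took 4.37%, 4.46% and 4.90% of the counts, against 1.76% to 3.35% in the others. As to the label of colon cancer cells, Cdx2, a colon transcription factor, had 0 counts in all 17 tumors. The other genes of the epithelial list had counts. In mean FPKM, Krt19 was at 8.82, Krt18 at 6.03, Krt8 at 5.02, Lgals4 at 4.81, Cdh1 at 3.34, Epcam at 1.18 and Vil1 at 0.0683. Krt14, a keratin of basal epidermis, averaged 168 FPKM. The other genes of the epidermis list were low. Krt10 was at 1.50 FPKM and Krt5, the usual partner of Krt14, at 0.427 FPKM, with Krt1 and Lor at 0.0097 and 0.0089 FPKM.

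The killing genes spanned a wide range of levels, which are compared here per length of gene, as FPKM (reads scaled to library total and to the length of the gene). Gzmd was at the top with a mean of 164 FPKM ± 69.6 (SD, n = 17 tumors), and Gzmc was next with 161 FPKM ± 66.2. Their order was not resolved, since the log2 difference within tumors averaged 0.0013 ± 0.22 (SD) and Gzmd was the higher in 8 of 17 tumors. Gzmf followed with 96.0 FPKM ± 55.9, below Gzmc in 16 of 17 tumors.

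Gzme had 56.9 FPKM ± 23.6 and lay below Gzmf in all 17 tumors. Gzmb, the granzyme usually measured to mark killer cells, had 50.2 FPKM ± 15.4 and did not differ from Gzme beyond their spread (log2 difference 0.12 ± 0.72). Its level was above that of Gzma in 16 of 17 tumors. The next 3 genes in the order, Gzma with 20.1 FPKM ± 10.2, Nkg7 with 17.5 FPKM ± 8.31 and Prf1 with 17.4 FPKM ± 6.71, were not separated from each other beyond the spread.

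The lowest levels were those of Fasl, with 1.29 FPKM ± 0.520, and of Gzmk, with 0.587 FPKM ± 0.442. Prf1 exceeded Fasl, and Fasl exceeded Gzmk, in all 17 tumors. Ordered by the median in place of the mean, Nkg7 and Prf1 changed places. Without division by length the order is another, with Gzmb above Gzme and Prf1 above Gzma and Nkg7, so it holds only per length. The neighbour Gzmg, which is not among the 10 genes, averaged 187 FPKM.

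**Figure D1:**
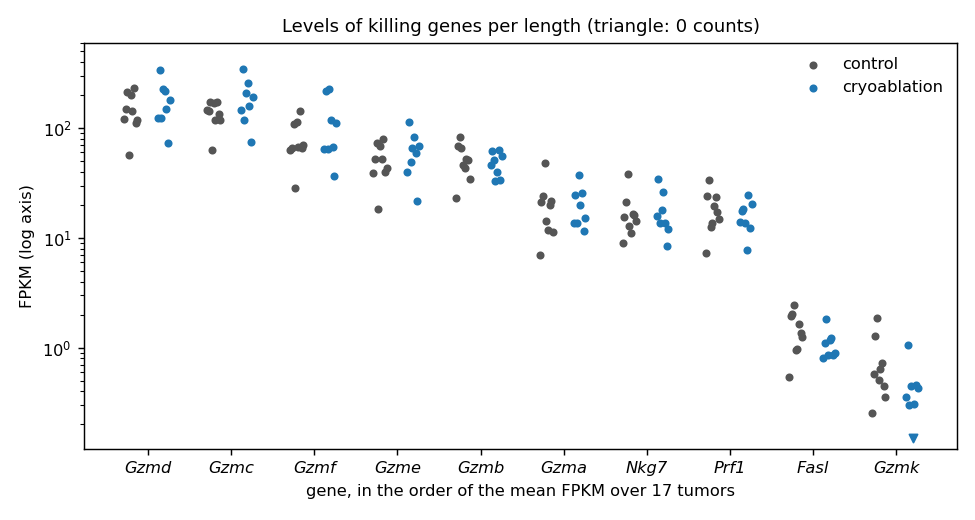
FPKM of each killing gene (log axis) in the 9 control tumors (grey) and 8 cryoablation tumors (blue), with genes in the order of their mean over 17 tumors and 1 point per tumor. Gzmd and Gzmc share the top at means of 164 and 161 FPKM, Gzmk is lowest at 0.587 FPKM, and the triangle marks the cryoablation tumor in which Gzmk had 0 counts.

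Between the groups, 0 of the 10 killing genes changed by any of the edgeR criteria. In edgeR's quasi-likelihood test, 0 of 10 had an unadjusted p under 0.05 together with a change of over 1 on the log2 scale, a threshold that 0.492% of the 13005 genes passed. At an unadjusted p under 0.05 alone, the count was 0 of 10 against 4.91% of all genes tested. After Benjamini-Hochberg adjustment across the whole table, an adjusted p under 0.05 was reached by 0 of 10 and by 0 of 13005 genes, the smallest of them all being 0.728. At an unadjusted p under 0.05, DESeq2 gave 1 of the 10 (Gzmc, higher), where it called 6.77% of all genes, and limma's voom gave 1 (Fasl, lower), where it called 10.1%.

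Of the 10 genes, 6 had a log2 fold change above 0 and 4 below 0, where 48% of all genes tested were above 0. The median log2 fold change of the 10 was 0.20, beside -0.0088 over all genes tested. The median of the 10 turned to -0.06 with limma's voom and, in alternatives described below, to -0.17 with an offset for gene length and -0.24 without cryoablation replicates 2, 4 and 5. Without cryoablation replicate 2 alone it was 0.04. A bulk value does not tell fewer cells of a type from less RNA per cell, and the p-values measure the spread between these tumors, since the labels do not say what a replicate number stands for.

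The tandem granzymes had the highest fold changes of the 10, with wide errors. Gzmc ranged from 54.3 to 165 CPM (median 122) in the control group and from 63.8 to 359 CPM (median 152) in the cryoablation group. Its tumors overlapped, with 4 of 8 cryoablation tumors inside the control range and 6 of 8 higher than the control median. The mean was 120 CPM ± 32.8 (SD, n = 9) in control and 182 CPM ± 102 (SD, n = 8) in cryoablation tumors, a log2 fold change of 0.60 (SE 0.29, 95% interval -0.0006 to 1.21, edgeR adjusted p = 0.728). An exact permutation test over tumors, two-sided like those that follow, gave p = 0.175.

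Gzmf ranged from 25.2 to 122 CPM (median 61.4) in control and from 32.2 to 235 CPM (median 79.6) in cryoablation tumors. The groups overlapped, with 4 cryoablation tumors on each side of the control median. Its log2 fold change was 0.66 (SE 0.38, 95% interval -0.13 to 1.46, edgeR adjusted p = 0.728, exact permutation p = 0.290).

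Gzmd ranged from 52.4 to 211 CPM (median 130) in control and from 66.5 to 384 CPM (median 153) in cryoablation tumors. Gzme ranged from 16.0 to 68.2 CPM (median 45.0) in control and from 19.0 to 121 CPM (median 56.4) in cryoablation tumors. For both genes 5 of 8 cryoablation tumors lay inside the control range. The log2 fold change was 0.42 (SE 0.31) for Gzmd and 0.43 (SE 0.32) for Gzme, each with an edgeR adjusted p of 0.734.

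The high values of these 4 genes came from the same tumors. Cryoablation replicates 2, 4 and 5, the tumors that stood apart, held the 3 highest CPM of all 17 tumors for each of Gzmc, Gzmd, Gzme and Gzmf. By FPKM, which carry no TMM scaling, this held for Gzmc, while control replicate 7 was among the 3 highest for Gzmd, Gzme and Gzmf. Without these 3 tumors, a choice made after seeing the data, the log2 fold change was -0.03 for Gzmc, -0.23 for Gzmd, -0.15 for Gzme and -0.25 for Gzmf. All 4 genes are shorter than 1000 bases. With an offset for each tumor's trend over gene length, also added after seeing the data, the log2 fold changes were 0.17 for Gzmc, -0.0040 for Gzmd, 0.01 for Gzme and 0.16 for Gzmf.

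Gzmb had nearly equal means in both groups. It ranged from 35.0 to 108 CPM (median 70.3) in control and from 46.3 to 103 CPM (median 70.7) in cryoablation tumors. Every cryoablation tumor lay inside the control range. The means were 71.6 CPM ± 23.2 (SD, n = 9) and 71.5 CPM ± 18.0 (SD, n = 8), with a log2 fold change of -0.0027 (SE 0.20, 95% interval -0.42 to 0.42, edgeR adjusted p = 0.997).

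Gzma ranged from 7.54 to 46.2 CPM (median 18.7) in control and from 11.0 to 42.5 CPM (median 19.6) in cryoablation tumors. Again every cryoablation tumor lay inside the control range, and the log2 fold change was 0.17 (SE 0.33, 95% interval -0.52 to 0.86, edgeR adjusted p = 0.846). This sign was not stable, since the value was -0.18 with limma's voom and -0.34 without cryoablation replicates 2, 4 and 5.

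Gzmk, at the limit of detection, was the gene with the lowest fold change. It ranged from 0.373 to 2.46 CPM (median 0.766) in control and from 0 to 1.72 CPM (median 0.535) in cryoablation tumors. Cryoablation replicate 5 had 0 counts, which allows up to 0.222 CPM of its total before TMM scaling, for counting error only. The control median exceeded 7 of 8 cryoablation tumors, and 7 of 8 lay inside the control range.

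The log2 fold change of Gzmk was -0.69 (SE 0.47, 95% interval -1.67 to 0.29, edgeR adjusted p = 0.728, exact permutation p = 0.134). Without cryoablation replicate 2, the highest of its group, it was -1.08 and passed the combined threshold of fold change and unadjusted p, though not the adjusted p. Without cryoablation replicate 5 it was -0.53.

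Prf1, whose product forms the pore, ranged from 19.9 to 79.4 CPM (median 41.9) in control and from 26.3 to 59.7 CPM (median 41.8) in cryoablation tumors. All cryoablation tumors lay inside the control range. The log2 fold change was -0.11 (SE 0.23, 95% interval -0.58 to 0.37, edgeR adjusted p = 0.863).

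Nkg7, which codes for a granule membrane protein needed for efficient release, ranged from 8.81 to 33.6 CPM (median 13.3) in control and from 7.29 to 36.6 CPM (median 12.8) in cryoablation tumors. High values were found in both groups, in control replicate 4 and in cryoablation replicates 2 and 5. The log2 fold change was 0.22 (SE 0.32, 95% interval -0.44 to 0.89, edgeR adjusted p = 0.808), and it was -0.46 without cryoablation replicates 2, 4 and 5, -0.22 with the offset for gene length and -0.15 with limma's voom.

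Fasl, the granule-independent ligand, ranged from 1.12 to 4.53 CPM (median 2.48) in control and from 1.49 to 3.27 CPM (median 2.05) in cryoablation tumors. Every cryoablation tumor lay inside the control range, 5 of 8 below the control median. The log2 fold change was -0.30 (SE 0.25, 95% interval -0.83 to 0.23, edgeR adjusted p = 0.746).

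**Figure D2:**
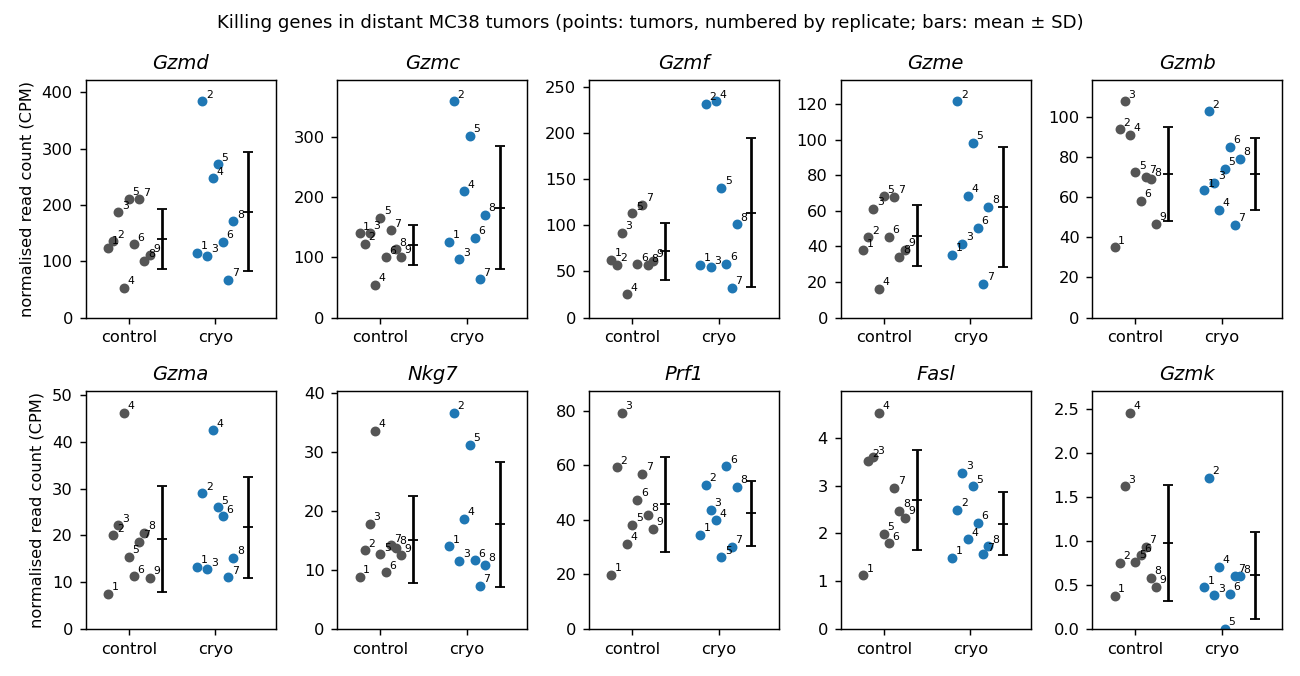
Normalised read count (CPM) of each killing gene, 1 point per tumor numbered by replicate, in the control group (grey, n = 9) and the cryoablation group (blue, n = 8), with bars for the mean ± SD. The groups overlap for every gene, and cryoablation replicates 2, 4 and 5 are the 3 highest tumors in CPM for Gzmd, Gzmc, Gzmf and Gzme.

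Control replicate 4 had an unusual mix of these genes. It had the highest control values of Gzma (46.2 CPM), Nkg7 (33.6 CPM), Fasl (4.53 CPM) and Gzmk (2.46 CPM), and at the same time the lowest control values of Gzmc (54.3 CPM), Gzmd (52.4 CPM), Gzme (16.0 CPM) and Gzmf (25.2 CPM). Control replicate 1 was lowest for Gzma, Gzmb, Prf1, Nkg7, Fasl and Gzmk, while its Gzmc stood at 140 CPM.

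**Figure D3:**
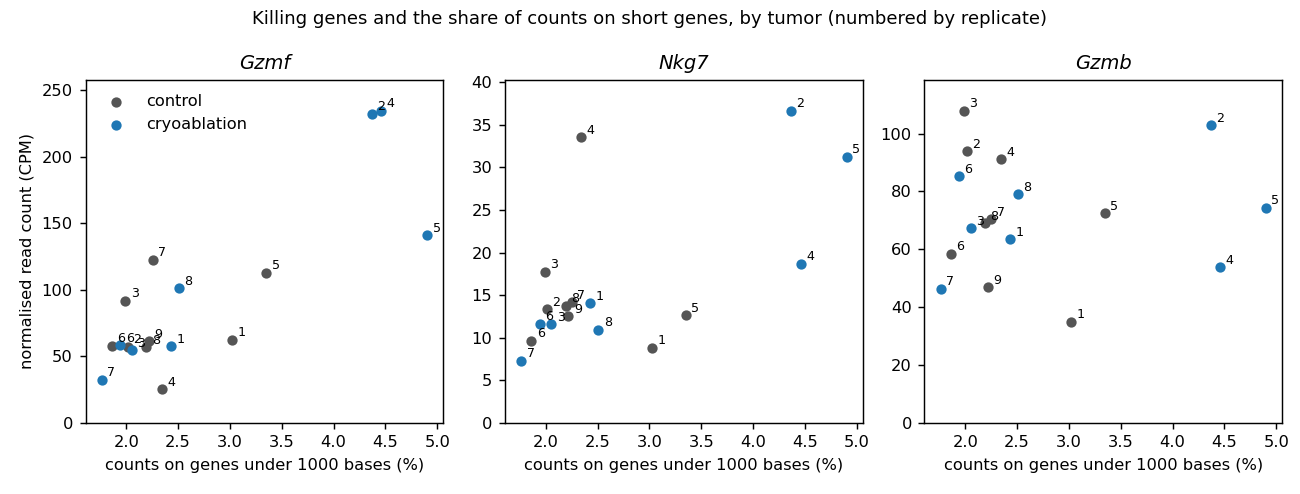
CPM of Gzmf, Nkg7 and Gzmb (y axis) against the percentage of a tumor's counts on genes under 1000 bases (x axis), 1 point per tumor numbered by replicate, control in grey and cryoablation in blue. Cryoablation replicates 2, 4 and 5, at 4.37% to 4.90%, hold the 3 highest Gzmf values in CPM, whereas their Gzmb values lie among those of the other tumors.

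To relate the killing genes to T cell RNA in the same tumor, each was set against the mean log2 CPM of Cd3d, Cd3e and Cd3g, which code for the signaling chains of the T cell receptor. This CD3 level was 2.39 ± 0.63 (log2 CPM, SD, n = 9) in control and 2.31 ± 0.96 (SD, n = 8) in cryoablation tumors (exact permutation p = 0.841). Relative to it, 0 of the 10 genes differed with an exact permutation p under 0.05. Nkg7 had the smallest p, with a log2 ratio of 1.44 ± 0.16 in control and 1.65 ± 0.29 in cryoablation tumors (difference 0.22, exact permutation p = 0.0703).

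Relative to CD3, Gzmc differed by 0.54 on the log2 scale (exact permutation p = 0.180), Gzmb by 0.11 (exact permutation p = 0.718) and Prf1 by 0.02 (exact permutation p = 0.967). Without cryoablation replicates 2, 4 and 5, Gzmb alone had an exact permutation p under 0.05, with a difference of 0.60. With 1 tumor left out, between 0 and 2 genes did. These were Gzmc and Nkg7 without control replicate 1, Nkg7 without cryoablation replicate 2 or 3, and Gzmk without cryoablation replicate 7.

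The other genes of the pathway were taken from 6 lists with 47 genes, of which 45 were tested. With edgeR, 2 of 45 had an unadjusted p under 0.05, beside 4.91% of all genes tested, and both were lower in the cryoablation group, as were 1.17% of all genes tested. None of the 45 had an adjusted p under 0.05. The median log2 fold change of the 45 was -0.15, beside -0.0088 over all genes tested. Of the 45, 10 were above 0, beside 48% of all genes tested. By limma's voom, 13 of the 45 had an unadjusted p under 0.05, beside 10.1% of all genes tested, and without control replicate 1 the edgeR count was 9, beside 9.89%.

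Both lower genes code for serpins, proteins that trap granzymes and other serine proteases inside cells. Serpinb6b, of the same clade as the granzyme B inhibitor, ranged from 26.7 to 42.4 CPM (median 31.5) in control and from 18.7 to 32.8 CPM (median 22.8) in cryoablation tumors. The control median exceeded 6 of 8 cryoablation tumors, and the groups overlapped. The log2 fold change was -0.39 (SE 0.14, edgeR unadjusted p = 0.0123, adjusted p = 0.728, exact permutation p = 0.0142).

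Serpinb9, the mouse inhibitor of granzyme B that protects killer cells from their own granules, ranged from 37.8 to 78.7 CPM (median 56.1) in control and from 36.3 to 63.4 CPM (median 41.0) in cryoablation tumors. Its log2 fold change was -0.33 (SE 0.15, edgeR unadjusted p = 0.0455, adjusted p = 0.728, exact permutation p = 0.0607). The other inhibitors, Serpinb9b at -0.31 and Serpina3n at -0.15, did not pass the unadjusted p. With 1 tumor left out, Serpinb6b had an unadjusted p under 0.05 in 17 of 17 fits and Serpinb9 in 5 of 17. Cryoablation replicates 2, 4 and 5, which stood apart, had 20.2, 19.9 and 22.6 CPM of Serpinb6b. The whole cryoablation group ranged from 18.7 to 32.8 CPM. A fit that left these tumors out called 2 pathway genes at an unadjusted p under 0.05, Ifng among them. Serpinb6b and Serpinb9 therefore did not both pass in that fit. For Serpinb9b, 0 of 8 cryoablation tumors reached the control median of 7.01 CPM.

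Of the other granzymes, Gzmg had a log2 fold change of 0.47 (SE 0.33) and Gzmm, which lies outside the row, 0.02 (SE 0.19). Gzmn, with 0 to 9 counts per tumor, did not pass the filter. Its median was 0.0746 CPM in control and 0.295 CPM in cryoablation tumors, where 3 counts are worth 0.168 to 0.222 CPM. All 8 cryoablation tumors exceeded the control median (exact permutation p = 0.0450). Cryoablation replicates 2, 4 and 5, the tumors that stood apart, held the highest CPM of both Gzmg and Gzmn. They had 420, 327 and 263 CPM of Gzmg, and 0.774, 0.624 and 0.675 CPM of Gzmn. Both genes are short, at 909 bases for Gzmg and 990 bases for Gzmn. The part of gene length in these differences was not tested.

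Of 11 genes for granule maturation and release, 11 were tested and 0 had an unadjusted p under 0.05. Of these 11, 9 were below 0, beside 6759 of all 13005 genes tested, with a median log2 fold change of -0.12. Lamp1, a granule and lysosome membrane protein, had the highest level at 168 FPKM and a log2 fold change of -0.06 (SE 0.08). Srgn, which codes for the proteoglycan that packs granzymes, was next at 75.2 FPKM with -0.07 (SE 0.28).

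In the death receptor arm, 0 of 7 genes had an unadjusted p under 0.05. Fas, the receptor of Fas ligand, had a log2 fold change of 0.01 (SE 0.19). Tnfsf10, the gene of the ligand TRAIL, had the lowest value at -0.79 (SE 0.38, edgeR adjusted p = 0.728). The most abundant genes of the list were Casp8, the initiator caspase of this arm, at -0.04 (SE 0.11), and Cflar, its inhibitor, at -0.06 (SE 0.13). Of 7 substrates and executioners of cell death, 0 had an unadjusted p under 0.05, and Parp1 had a log2 fold change of -0.10 (SE 0.10).

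Among the regulators and cytokines of killer cells, 14 of 15 genes were tested and 0 had an unadjusted p under 0.05. Of these 14, 12 were below 0, beside 6759 of all 13005 genes tested, with a median of -0.22. Id2, at 21.5 FPKM the most abundant, had a log2 fold change of -0.23 (SE 0.26), and Il15, at 9.02 FPKM, had 0.08 (SE 0.14). The transcription factors Tbx21, at -0.22 (SE 0.40), and Eomes, at -0.15 (SE 0.22), and the cytokine Ifng, at -0.34 (SE 0.45), had errors larger than their values. Without cryoablation replicates 2, 4 and 5, Ifng passed the combined threshold of fold change and unadjusted p, and was lower.

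**Figure D4:**
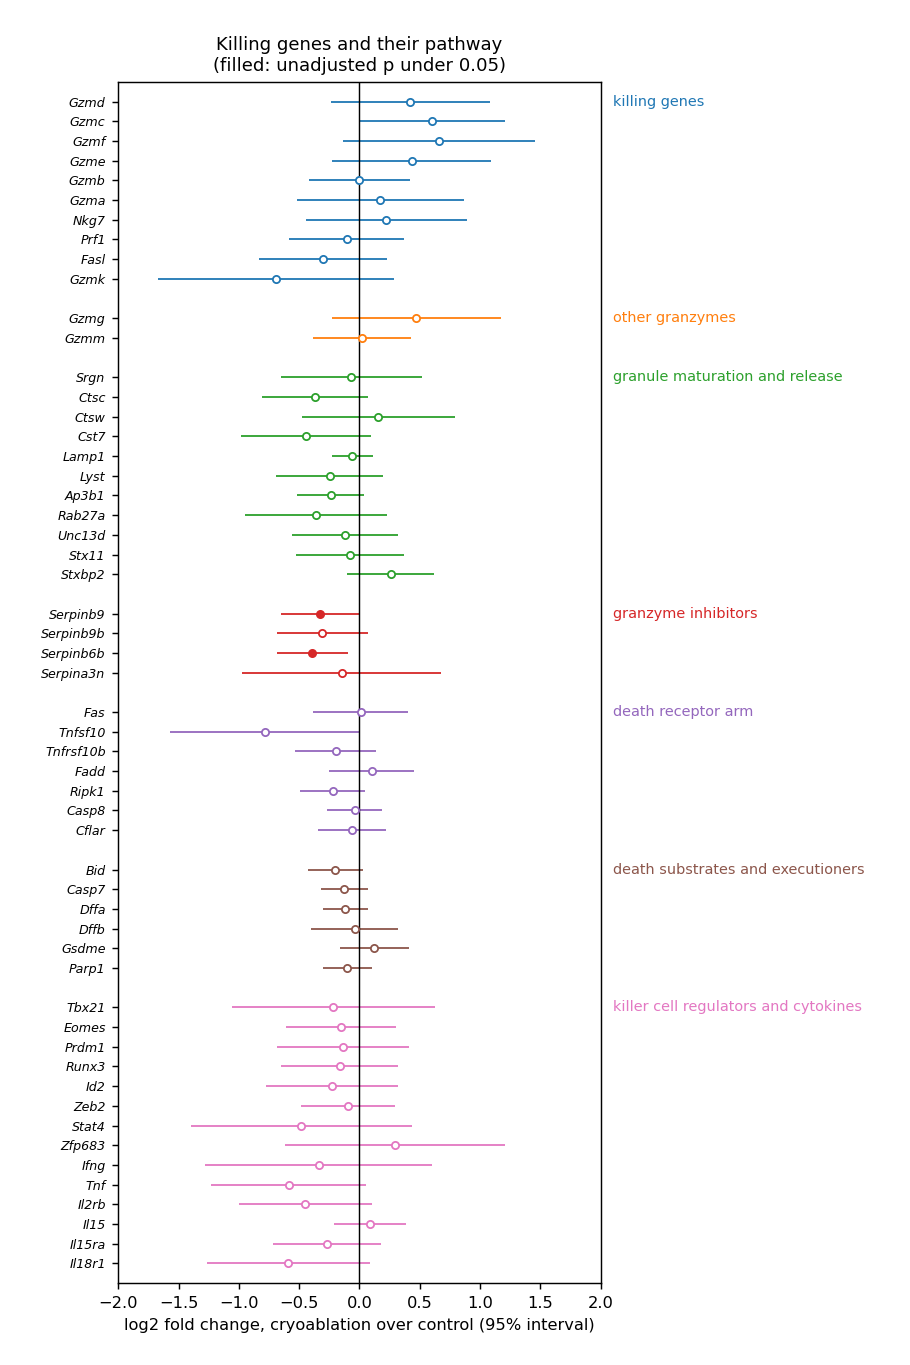
Log2 fold change of the cryoablation over the control group (x axis) with 95% intervals for the 10 killing genes and for tested genes of 6 pathway lists, from edgeR, 1 row per gene and 1 color per list. The interval of each killing gene holds 0, and the filled points, Serpinb9 at -0.33 and Serpinb6b at -0.39, mark an unadjusted p under 0.05.

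Markers of the cells that could carry these transcripts were read beside them. Of 13 killer lymphocyte markers, 13 were tested, 0 had an unadjusted p under 0.05, and 6 were above and 7 below 0. Their summed level ranged from 27.0 to 239 FPKM in control and from 28.4 to 122 FPKM in cryoablation tumors. Most of it was Ccl5, a chemokine of activated T cells, at a mean of 46.7 FPKM. The other markers averaged from 0.560 FPKM for Cd247 to 7.49 FPKM for Klrd1. Among them, Cd3d was at 3.72 FPKM, Cd3g at 3.09 FPKM, Cd3e at 0.684 FPKM and the NK receptor gene Ncr1 at 1.60 FPKM.

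Mast cells can also hold granzymes. Their 8 markers summed to 3.74 to 43.5 FPKM in control and 3.70 to 21.4 FPKM in cryoablation tumors, with 0 of 6 tested at an unadjusted p under 0.05, and the most abundant was Mcpt4 at 3.01 FPKM. The 4 tested of 5 erythroid markers all had an unadjusted p under 0.05 and were higher, as were 3.74% of all genes tested. Hbb-bs, the most abundant, had a log2 fold change of 1.54 (SE 0.55, edgeR adjusted p = 0.728). Hba-a1 had 1.75 (SE 0.56), Hbb-bt 1.45 (SE 0.49) and Alas2 0.71 (SE 0.25). The sums of this list were 7.49 to 87.4 FPKM in control and 33.8 to 171 FPKM in cryoablation tumors. The part of blood in the values of the killing genes was not tested.

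Across the 17 tumors, the killing genes fell into a tight block and a loose block. For each of 45 pairs, Pearson's r and Spearman's rho of log2 CPM were computed, with 100000 permutations and Benjamini-Hochberg adjustment over the 45 pairs. Within Gzmc, Gzmd, Gzme and Gzmf, r ranged from 0.922 to 0.985 over 6 pairs, and all 6 had adjusted p under 0.05 for r and rho. Within the control group alone r was 0.910 to 0.995, and within the cryoablation group alone 0.898 to 0.986. Shared reads between these close copies would add to such values, and their part was not tested.

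The closest pair was Gzmd with Gzme (r = 0.985, permutation p = 1e-05, the smallest that this number of permutations can give, adjusted p = 7.5e-05, rho = 0.968). Without the 2 tumors farthest from the median of Gzmd, r was 0.973. Among the 15 pairs of the other 6 genes, r ranged from 0.05 for Prf1 with Nkg7 to 0.798 for Gzma with Nkg7, with a median of 0.444. Of these 15, 7 pairs had an adjusted p under 0.05 for r, and 4 of the 7 also for rho.

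Gzma and Nkg7 had r = 0.798 (permutation p = 0.00011, adjusted p = 0.000707) and rho = 0.833, with r = 0.716 without the 2 tumors farthest from the median of Gzma, 0.939 in control and 0.706 in cryoablation tumors. Gzmb and Prf1 had r = 0.702 (permutation p = 0.00149, adjusted p = 0.0077) and rho = 0.625, with 0.438 without the 2 farthest tumors, 0.743 in control and 0.625 in cryoablation tumors. Gzmb and Fasl had r = 0.714 (permutation p = 0.00154, adjusted p = 0.0077) and rho = 0.686, with 0.544 without the 2 farthest tumors.

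Between the tandem granzymes and the other 6 genes, r ranged from -0.279 to 0.441 over 24 pairs, and 0 had an adjusted p under 0.05. The values differed by group, with a median of -0.28 in control and 0.47 in cryoablation tumors, and this difference was not tested. For Gzmc with Nkg7, r was 0.441 over all tumors (permutation p = 0.0754, adjusted p = 0.228), -0.66 in control and 0.94 in cryoablation tumors. Control replicate 4, with low Gzmc and high Nkg7, weighed on this pair, for which r was 0.87 without it. Both genes also ran with the percentage of counts on genes under 1000 bases in cryoablation tumors (r = 0.887 for Gzmc, 0.905 for Nkg7). In control tumors these values were 0.361 and -0.189. Within the cryoablation group they ranged from 0.820 to 0.901 for Gzmc, Gzmd, Gzme and Gzmf. For the other 6 genes they ranged from -0.242 to 0.905. The part of this percentage in the pairs was not tested. Over all 45 pairs, 13 had an adjusted p under 0.05, and 21 without control replicate 4 and 7 without control replicate 1.

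**Figure D5:**
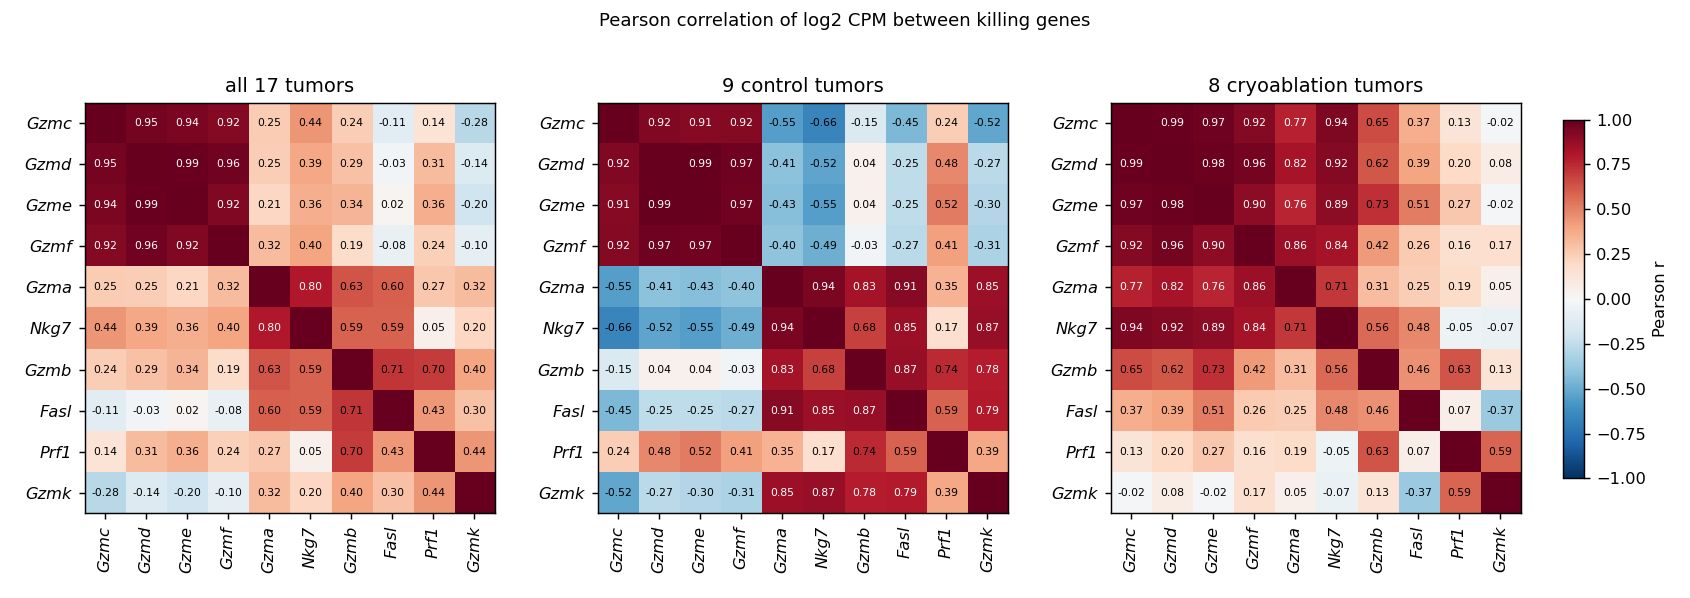
Pearson's r of log2 CPM for each pair of killing genes, as color and number, in all 17 tumors (left), the 9 control tumors (middle) and the 8 cryoablation tumors (right). Gzmc, Gzmd, Gzme and Gzmf form a block at 0.922 to 0.985 over all tumors, and the pairs between this block and the other 6 genes have a median of -0.28 in control and 0.47 in cryoablation tumors.

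For each killing gene, the 3 genes outside the 10 whose log2 CPM ran most alike over the 17 tumors were listed, as a description with no test. Gzmg was the closest gene to Gzmd (r = 0.984), Gzmf (r = 0.978), Gzme (r = 0.961) and Gzmc (r = 0.910). For Nkg7 the list held Lat (r = 0.965), which codes for an adaptor of T cell receptor signaling, Cd37 (r = 0.959) and Cd3g (r = 0.948). For Fasl it held the T cell costimulator gene Icos (r = 0.937), Slfn1 (r = 0.936) and Bst1 (r = 0.932).

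Gzmb ran most like the interferon-inducible GTPase gene Igtp (r = 0.877), Sh2d2a (r = 0.857) and Slamf7 (r = 0.844), a receptor gene of activated lymphocytes. The list of Prf1 was Zfp945 (r = 0.830), Havcr2 (r = 0.802), the gene of the inhibitory receptor TIM-3, and Gbp7 (r = 0.795), another interferon-inducible GTPase gene. Gzma ran with Tspan13 (r = 0.879), Lysmd2 (r = 0.870) and Gng2 (r = 0.868), none of which is a killer cell marker of the lists. Gzmk ran with Scart1 (r = 0.809), Atp6v1c1 (r = 0.798) and Evi2 (r = 0.789), at counts that were low in every tumor.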

How the data were processed

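RNA sequencing of 9 control and 8 cryoablation tumors of the distant flank was analysed, grouped by the sample labels, with 0 columns left without a label. Bead-captured mRNA was read on a NovaSeq instrument. The authors deposited a read count per gene and tumor, not normalized, and FPKM values. The FPKM deposited equalled the count divided by gene length and total count for 260739 of 260739 values above 0 (tolerance 1e-06). The aligner, the counting program and the strandedness are not given in the sources used here. The submitters' processing notes name GRCm38 and mm10, but listed positions equal those of GENCODE M21 for only 512 of 21827 genes in common, and are given without a build. No pair of tumors had identical counts.

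Counts were tested with edgeR 4.0.16 in R 4.3.3 (TMM, filterByExpr by group, quasi-likelihood F test, no term beside the group), with Benjamini-Hochberg adjustment over 13005 genes. SE is the log2 fold change over the square root of F. A combined threshold, a log2 change of over 1 in size at an unadjusted p under 0.05, was counted too. The study's methods also combine a fold change with a P value, and name adjusted values without making clear which of them the limit was set on. Single genes were also compared as log2 CPM (prior count 2) by an exact permutation test, two-sided, with all 24310 ways to split the tumors, whose smallest p is 4.11e-05. Total counts of 13524899 to 17898672 per tumor make 3 counts worth 0.168 to 0.222 CPM. The scripts were tested on simulated counts.

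The genes and 18 lists (121 genes, of them 47 in 6 pathway lists) were chosen with earlier results of these data known. Named were the 10 genes, in each pathway list the genes with an unadjusted p under 0.05 and the 2 of highest FPKM, in each marker list the former, the most abundant and those at 0, and 3 genes most alike in log2 CPM per killing gene. A few more pathway genes (Gzmn, Serpinb9b, Fas, Tnfsf10, Tbx21, Eomes and Ifng) were named after their values were seen. Further marker genes were named beyond this rule. They are Cd3d, Cd3e, Cd3g, Cd247, Klrd1, Ncr1, Krt18, Krt8, Lgals4, Cdh1, Epcam, Vil1, Krt5, Krt1, Lor, Csf3r, Retnlg, Cxcr2 and Ly6g. Alternatives were DESeq2 1.42.0, limma 3.58.1 (voom, with quality weights per sample), RLE and upper-quartile normalization, a filter at a mean of 10 counts or none, other scales than CD3, the replicate block, and leaving out each tumor. Sequences came from GENCODE M21 transcripts and RefSeq promoters. RefSeq promoters were at hand for all 10 genes. A gene of the pathway lists is not reported here. The study's flow cytometry and human samples were not analysed here.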

Additional observations from a re-analysis of the deposited data

Results flagged for a closer look

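Among 20 groups of values (10 killing genes in 2 groups of tumors), 3 held a tumor whose gap to the next exceeded Dixon's 95% critical value. For normally distributed values chance gives about 1 in 20. The gaps were taken on CPM without a log, so skewed values can exceed it more often. Gzma was 46.2 CPM in control replicate 4, with the next control tumor at 22.2 CPM. Nkg7 was 33.6 CPM in the same tumor, with the next at 17.8 CPM. Since Gzma and Nkg7 ran together in control tumors (r = 0.939), these are not 2 separate flags. Gzmk was 1.72 CPM in cryoablation replicate 2, with the next tumor of its group at 0.702 CPM.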

How the results depend on the processing

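No alternative gave a killing gene an adjusted p under 0.05. Over all genes tested, an unadjusted p under 0.05 was reached by 6.77% with DESeq2, 10.1% with voom, 5.02% with RLE, 5.57% without a filter, 2.45% without cryoablation replicates 2, 4 and 5, and 1.93% to 10.6% with 1 tumor left out. With the fold criterion added, these shares were 0.607% with voom, 2.42% without a filter, 0.43% without the 3 tumors and 0.26% to 1.27% with 1 tumor left out. At an unadjusted p under 0.05, 1 of the 10 killing genes was called, in place of 0, by DESeq2, with RLE normalization and without a filter on low counts (Gzmc each time), by limma's voom (Fasl), and without cryoablation replicates 2, 4 and 5 (Gzmk), an alternative chosen after seeing the data like the offset for gene length. With 1 tumor left out, 0 to 2 were called (Gzmc and Gzmf without cryoablation replicate 7), and 0 to 1 when an absolute log2 fold change over 1 was also required. Of the pathway genes, 13 were called at an unadjusted p under 0.05 by voom and 4 without a filter, in place of 2, and 1 to 9 with 1 tumor left out. With the fold criterion added, 2 were called by voom, 1 without a filter, 1 without cryoablation replicates 2, 4 and 5, and 0 to 1 with 1 tumor left out, in place of 0. Without cryoablation replicates 2, 4 and 5, log2 fold changes turned to -0.34 for Gzma, -0.031 for Gzmc, -0.23 for Gzmd, -0.15 for Gzme, -0.25 for Gzmf and -0.46 for Nkg7. They turned to -0.17 for Gzma, -0.0040 for Gzmd and -0.22 for Nkg7 with the length offset, and to -0.18 for Gzma and -0.15 for Nkg7 with voom. Gzmb, near 0, turned to 0.0044 with DESeq2, 0.0042 with RLE and 0.024 with voom. The cause was not tested in these cases. With 1 tumor left out, Gzma ranged from -0.039 to 0.44, Gzmb from -0.10 to 0.085, Prf1 from -0.20 to 0.028 and Nkg7 from -0.015 to 0.45, and each of the other killing genes held its sign. Relative to CD3 genes, 1 gene in place of 0 had an exact permutation p under 0.05 without cryoablation replicates 2, 4 and 5 (Gzmb), and 0 to 2 with 1 tumor left out. Gzmb turned to -0.0067 on the scale of NK receptor genes, Prf1 to -0.0054 on that of Cd8a and Cd8b1 and -0.10 on that of NK receptor genes, and Fasl to 0.29 without the 3 tumors. With 1 tumor left out, these ratios ranged from -0.037 to 0.26 for Gzmb, -0.22 to 0.27 for Prf1 and -0.33 to 0.024 for Fasl. Between 7 and 21 of 45 pairs of killing genes had an adjusted p for r under 0.05 with 1 tumor left out, 15 in control tumors alone and 11 in cryoablation tumors alone, in place of 13.

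The replicate numbers are not shown to pair the tumors. Same-numbered tumors had correlations of their deviations from -0.51 to 0.642, over 0.1 in 4 of 8 pairs, and 2 of 8 control tumors correlated best with their own number. With the replicate block, 0 killing genes and 3 pathway genes had an unadjusted p under 0.05, and no direction of a killing gene changed. Gzmk did not pass the filter in this fit, nor in 8 of the 17 fits with 1 tumor left out. Low counts limit Gzmk (0 to 38 per tumor) and Gzmn (0 to 9).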

Other observations

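The marker lists of other cells in the tumors gave these values from edgeR, with none of the genes at an adjusted p under 0.05. Of the macrophage markers, Adgre1, which codes for F4/80, was lower in the cryoablation group at an unadjusted p under 0.05 (log2 fold change -0.69, SE 0.29, adjusted p = 0.728). Its highest control tumor was at 238 CPM, while the medians were 59.7 CPM in control and 51.6 CPM in cryoablation tumors. The most abundant marker, C1qa at 470 FPKM, had 0.52 (SE 0.35). The 6 markers summed to 557 to 1479 FPKM in control and 373 to 1890 FPKM in cryoablation tumors. Of the neutrophil markers, S100a8 (1.34, SE 0.53) and S100a9 (1.61, SE 0.65) were higher at an unadjusted p under 0.05, whereas Csf3r had -0.51 (SE 0.42) and Retnlg 0.26 (SE 0.68), Cxcr2, below the filter, averaged 1.37 CPM in control and 0.932 CPM in cryoablation tumors, and Ly6g had at most 2 counts in a tumor. The plasmacytoid dendritic cell marker Ccr9 was lower (-1.03, SE 0.35), and the most abundant marker of that list, Cox6a2, had 0.23 (SE 0.50).

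Krt10 of the epidermis list (0.73, SE 0.26) and Fabp4 of the adipocyte list (0.86, SE 0.35) were higher at an unadjusted p under 0.05. None of the CD4 T cell, B cell, skeletal muscle and epithelial markers passed it, with Cd4 at -0.38 (SE 0.37), Cd79b at -0.03 (SE 0.61), Acta1 at -0.45 (SE 1.22) and Krt19 at 1.85 (SE 0.92). The muscle marker Tnnc2 had 0 counts in all 17 tumors.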
